A study of Mus musculus with 84 samples.

Results

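The mesothelial marker genes are 9 genes, Msln, Upk3b, Upk1b, Wt1, Krt7, Krt8, Krt18, Krt19 and Lrrn4, of the 21851 protein-coding genes measured. They were chosen by name as markers of mesothelium, and the rule uses no measured value. Earlier results of these data were known when they were chosen. The question put to them was whether chromatin of the mesothelium that covers epididymal fat shows in nuclei purified as adipocyte nuclei. The readout was the presence and width of peaks of 4 histone marks at each promoter, a window of 2000 bp on either side of every protein-coding transcription start site (TSS). A promoter counted as marked if a peak of that library reached 1 bp or more of its window, and its covered base pairs were the window bases under peaks. All 9 genes could be measured in all 84 libraries.

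Mesothelium is the single layer of flattened epithelial-like cells that lines body cavities and covers the organs within them, including visceral fat such as the epididymal depot. Mesothelial cells arise from mesoderm, yet they carry keratins and other proteins of epithelia, and they are known for the surface glycoprotein mesothelin and for the transcription factor Wt1. Keratins of simple epithelia and mesothelin are not typical of adipocytes, while Wt1 is also known from precursor cells of visceral fat. Of the marks, H3K27me3 is laid down by polycomb proteins at genes kept silent, H3K4me3 sits at active or poised start sites, H3K4me1 flanks promoters and marks enhancers, and H3K27ac goes with activity at both.

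Libraries were made by CUT&Tag, in which a transposase tethered through an antibody inserts sequencing adapters next to a histone mark. All mice were AdipoERCre x NuTRAP animals (written as on a C576BL6 background in the labels) that had been given tamoxifen, so that every group, controls included, carried the same Cre and reporter. The 12-week cohort held mice fed a high-fat diet for 12 weeks and taken at an age of 18 weeks (H), mice given 8 weeks of chow after that diet and taken at 26 weeks (HC), and controls kept on chow to the same ages (C for H, CC_s for HC). The 25-week cohort was built alike, with obese mice after 25 weeks of high-fat diet (HH, age 31 weeks), mice after 8 weeks of chow that followed (HHC, age 39 weeks), and their respective chow controls (CC_l and CCC). There were 21 H3K4me3, 21 H3K27ac, 22 H3K4me1 and 20 H3K27me3 libraries, with 2 or 3 biological replicates in each of the 32 combinations of mark and diet group. The biotin label depends on recombination by an adipocyte-driven Cre, and labelled nuclei were drawn on streptavidin beads from the nuclei of the whole tissue. How pure the nuclei were is not given by the peak lists.

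Libraries differed widely before any single gene was considered. A library held 11249 to 46397 peaks, the read depth behind it is unknown, and a promoter without a peak is one that did not enter that library's list, not one shown to lack the mark. Libraries of the 25-week cohort marked more promoters in H3K4me3, with a mean of 63.6% of genes against 53.3% in the 12-week cohort. The H3K27me3 lists of H and HC stood apart by their narrow peaks, with median widths of 332 to 914 bp against 1097 to 1425 bp in C and CC_s. H3K27ac CCC replicate 3 marked 17.7% of promoters, against 44.2% to 55.1% in the other libraries of its cohort. The labels contradict themselves for HH replicates 2 and 3, CC_l replicate 2 and CCC replicate 3 in H3K4me3, where title and treatment field name different groups. Titles were used throughout. The adipocyte list (Cebpa, Fabp4, Lipe, Plin1 and 6 more) checked the labelled cell type: a median of 10 of its 10 promoters carried H3K4me3 and a median of 10 carried H3K27ac, with lowest counts of 6 in each mark.

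RefSeq promoter sequences were at hand for 5 of the 9 genes. The 3 below are shown because their promoters fell into 3 different chromatin patterns in these data: Upk3b carried neither H3K4me3 nor H3K27me3 in any library, Krt7 carried mainly H3K27me3, and Lrrn4 often carried both. Each is the 250 bases before the RefSeq start site, 5′ to 3′, with CG dinucleotides, the sites of DNA methylation, in capitals.
Upk3b (GRCm38.p6, chr5:136038246-136038495, plus strand): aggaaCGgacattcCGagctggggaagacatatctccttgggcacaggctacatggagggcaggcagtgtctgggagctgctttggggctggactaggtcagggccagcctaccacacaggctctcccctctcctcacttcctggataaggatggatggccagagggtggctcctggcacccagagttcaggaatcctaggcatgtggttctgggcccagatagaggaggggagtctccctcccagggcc
Krt7 (GRCm38.p6, chr15:101412153-101412402, plus strand): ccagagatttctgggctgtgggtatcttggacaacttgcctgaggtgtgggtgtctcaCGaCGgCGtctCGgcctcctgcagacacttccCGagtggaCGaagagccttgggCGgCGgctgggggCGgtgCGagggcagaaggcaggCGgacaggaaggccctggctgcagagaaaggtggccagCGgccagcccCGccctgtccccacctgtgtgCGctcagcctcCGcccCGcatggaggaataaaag
Lrrn4 (GRCm38.p6, chr2:132880863-132881112, minus strand): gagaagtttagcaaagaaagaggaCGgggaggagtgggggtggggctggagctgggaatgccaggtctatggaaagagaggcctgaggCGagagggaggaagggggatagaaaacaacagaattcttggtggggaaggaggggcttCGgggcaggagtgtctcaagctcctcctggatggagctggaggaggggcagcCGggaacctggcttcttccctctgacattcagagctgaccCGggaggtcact

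The Upk3b promoter holds 2 CG dinucleotides, the Lrrn4 promoter 5 and the Krt7 promoter 16, against a median of 6 over the 32851 promoter sequences of the table. The dinucleotide reads the same on both strands. Of all promoters in the table, 25.4% hold at least as many as Krt7, 55.6% at least as many as Lrrn4 and 81.2% at least as many as Upk3b. The promoters of Krt8 and Krt18 hold 3 and 12. Msln, Wt1, Upk1b and Krt19 have no entry in the table. Over 5029 genes with fewer than 5 CG dinucleotides, H3K4me3 was found in a mean of 14.9% of libraries, and over 6766 genes with 15 or more in 88.3%. Krt7, with 16, was thus in the class with the most frequent H3K4me3 but carried it in 1 of 21 libraries.

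The mesothelial marker genes were marked chiefly by the polycomb mark. A library of H3K27me3 marked a mean of 6.30 of the 9 promoters (range 3 to 8, 20 libraries), or 70.0% of them, whereas 18.4% of all protein-coding promoters were marked. For the other marks the order was the reverse. H3K4me3 was found at a mean of 2.19 of the 9 promoters per library (range 0 to 6) and at 57.7% of all promoters. H3K27ac was found at 0.381 of 9 (range 0 to 3) and at 40.7% of all promoters, and 17 of 21 libraries marked none of the 9. H3K4me1 was found at 0.864 of 9 (range 0 to 4) and at 24.0% of all promoters, and 12 of 22 libraries marked none.

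**Figure D1:**
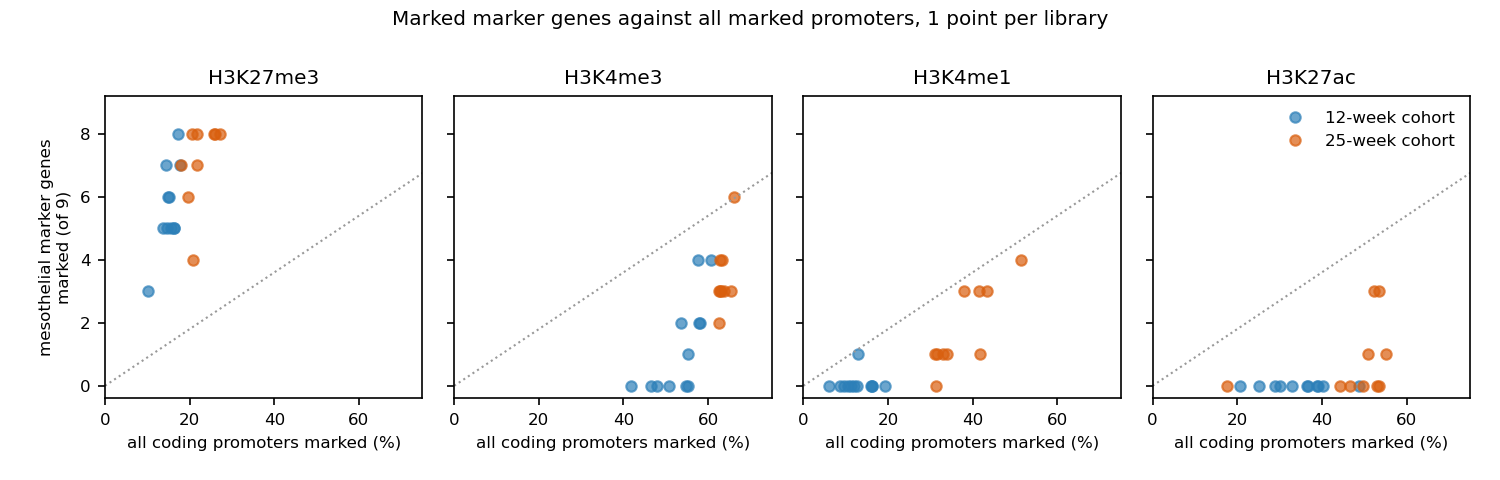
Number of the 9 mesothelial marker genes marked (vertical axis) against the share of all protein-coding promoters marked (horizontal axis, %), 1 point per library, for 4 marks, with the 12-week cohort in blue and the 25-week cohort in orange. The dotted line is the number that the share of all genes would give: all 20 H3K27me3 libraries lie above it, and the libraries of the other marks lie below, except HHC replicate 2 in H3K4me3.

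These counts moved with the libraries. In H3K4me3, a 12-week library marked a mean of 1.25 of the 9 genes (range 0 to 4, n = 12) and a 25-week library 3.44 (range 2 to 6, n = 9). In H3K27me3 the means were 5.64 ± 1.36 (SD, n = 11) and 7.11 ± 1.36 (n = 9), beside means of 15.1% and 22.4% of all promoters. When each H3K4me3 list was reduced to its 11249 strongest peaks, the size of the smallest list, the mean was 0.476 of 9 (5.29%, against 46.6% of all genes). In the full lists, the strongest H3K4me3 peak at a marked promoter had a median rank at the 59.5th percentile of its library's total signal for Lrrn4, the 51.7th for Wt1 and the 48.1st for Krt8. The same reduction to 21809 peaks left 5.75 of 9 genes marked in H3K27me3 (63.9%, against 15.1% of all genes). When the H3K27me3 lists were instead reduced to the 8.54 Mb covered by the smallest of them, a mean of 1.45 of 9 genes stayed marked, or 16.1% against 3.69% of all genes. That share rested on Wt1, which stayed marked in 20 of 20 libraries and was the sole marked gene of the 9 in 16 of them. Krt19 and Lrrn4 stayed marked in 3 libraries each, Krt8 in 2 and Msln in 1, all in H replicate 1, HC replicates 2 and 3 or HHC replicate 3.

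**Figure D2:**
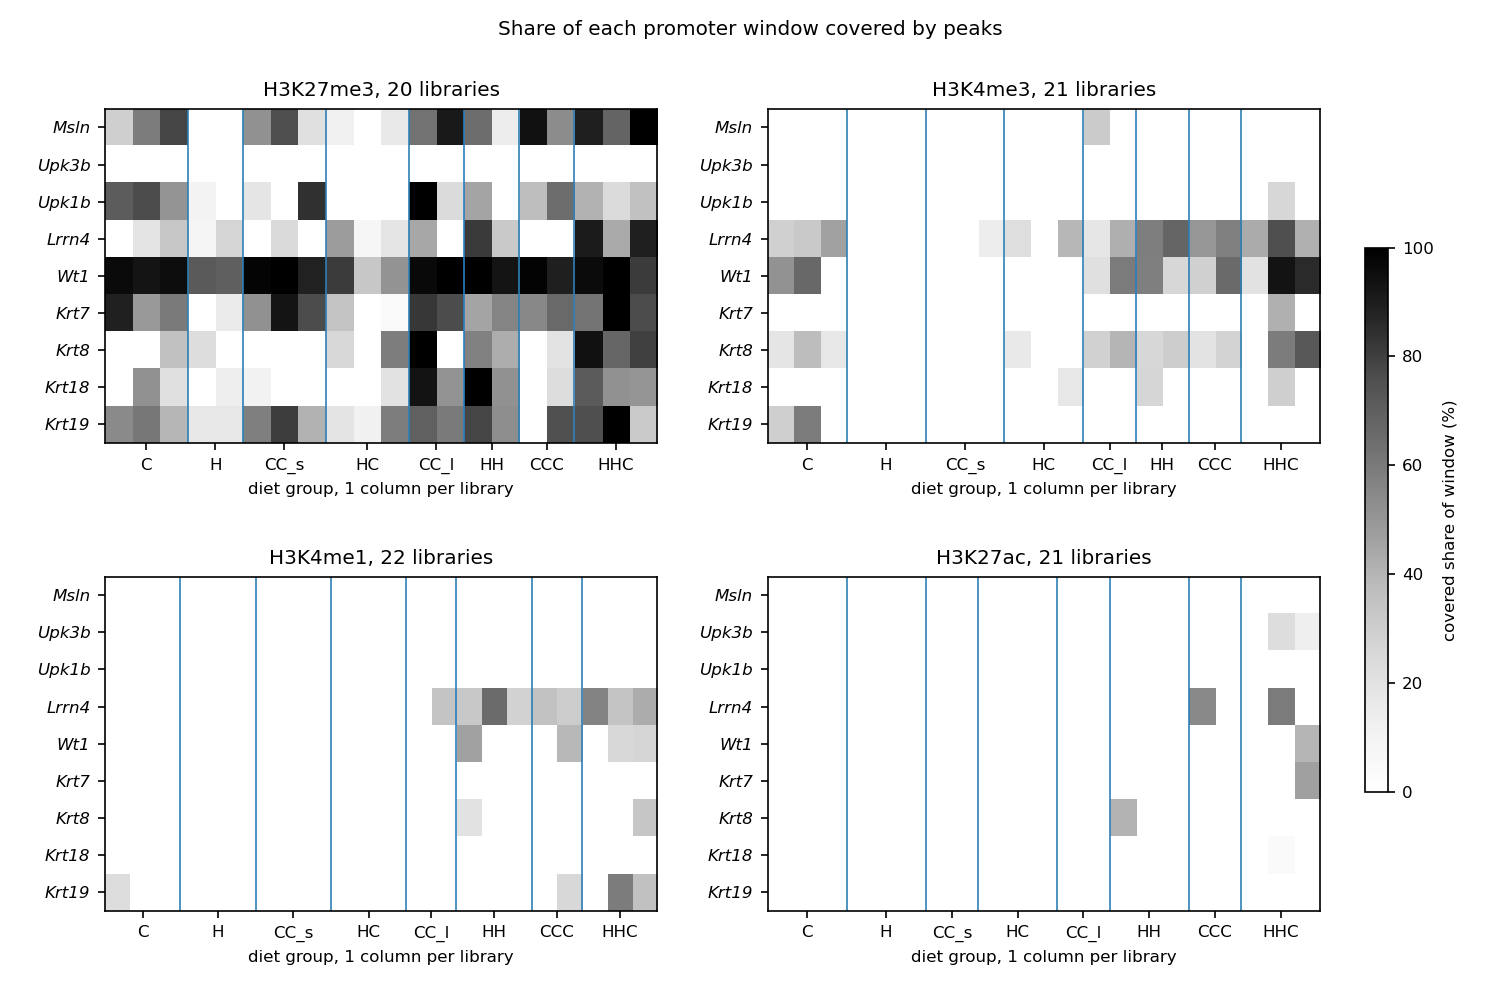
Share of each gene's promoter window covered by peaks (grey scale, 0 to 100%) for the 9 genes (rows) in every library (columns, grouped by diet), 1 panel per mark. H3K27me3 fills most of the rows except Upk3b, H3K4me3 is mainly in the rows of Lrrn4, Wt1 and Krt8, and the H3K27ac panel is almost empty.

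Wt1, a zinc-finger transcription factor of mesothelium, kidney and gonad (GRCm38 chromosome 2, 105126529 to 105173616, plus strand), was the most strongly polycomb-marked of the 9. It carried H3K27me3 in 20 of 20 libraries, with its widest peak between 1942 and 17885 bp. The strongest H3K27me3 peak at Wt1 ranked between the 94.6th and the 99.7th percentile of total signal in its own library. Its windows, 8270 bp in all because of alternative start sites, were covered over 7963, 7665 and 7869 bp in C, over 8132, 8270 and 7311 bp in CC_s, over 7998 and 8270 bp in CC_l and over 8164 and 7390 bp in CCC. In the diet groups, coverage was 5935 and 5754 bp in H, 6704, 2745 and 4210 bp in HC, 8270 and 7666 bp in HH, and 7921, 8270 and 6709 bp in HHC. Coverage was 6709 bp or more in every library outside H and HC, whose lists had narrow peaks genome-wide. The antisense RNA gene Wt1os starts just before Wt1, and peaks have no strand, so the 2 start regions cannot be told apart.

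Of the surface proteins, Msln (mesothelin, chromosome 17, 25748613 to 25754378, minus strand) carried H3K27me3 in 17 of 20 libraries and Upk1b (a uroplakin of the tetraspanin family, chromosome 16, 38773184 to 38800328, minus strand) in 14 of 20. Covered base pairs of Msln were 1197, 2398 and 3191 bp in C, 2111, 3093 and 849 bp in CC_s, 2541 and 3711 bp in CC_l and 3821 and 2164 bp in CCC. The Msln window was covered in every control library, and the libraries without a peak were both H libraries and HC replicate 2. Lrrn4, a leucine-rich repeat membrane protein (chromosome 2, 132868305 to 132880891, minus strand), carried H3K27me3 in 14 of 20 libraries. These were 4 of 10 control and 10 of 10 diet libraries, counts that pool cohorts, obese mice and mice after weight loss. The pooled split was not tested. In obese mice the Lrrn4 difference from controls was 688 bp and did not pass (exact permutation p = 0.45), and the weight-loss comparison is given below. Upk3b, a uroplakin often used as a mesothelial marker (chromosome 5, 136038496 to 136046487, plus strand), was the exception, with H3K27me3 in 0 of 20 libraries and its nearest H3K27me3 peak 3012 to 176450 bp from the start site.

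The keratins, which form the intermediate filaments of simple epithelia in pairs of a type I and a type II chain, differed in how regularly they were marked. Krt19 (type I, chromosome 11, 100140810 to 100148665, minus strand) carried H3K27me3 in 19 of 20 libraries and Krt7 (type II, chromosome 15, 101411043 to 101430313, plus strand) in 18 of 20. Krt18 (type I, chromosome 15, 102028180 to 102032027, plus strand) was marked in 13 of 20 and its partner Krt8 (type II, chromosome 15, 101996698 to 102004482, minus strand) in 11 of 20. The latter pair are neighbours on the chromosome. In the libraries that marked them, median coverage was 2317 bp for Krt19, 2442 bp for Krt7, 2034 bp for Krt18 and 2287 bp for Krt8, each in a window of 4001 bp.

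H3K4me3 was regular at 3 of the 9 genes only. Lrrn4 carried it in 15 of 21 libraries, Krt8 in 12 and Wt1 in 11, against 3 for Krt18, 2 for Krt19, 1 each for Msln, Upk1b and Krt7, and 0 for Upk3b. At Lrrn4, covered base pairs were 1147, 1281 and 1845 bp in C, 0 bp in each of 3 H libraries, 0, 0 and 551 bp in CC_s, and 890, 0 and 1574 bp in HC. In the 25-week cohort Lrrn4 was covered over 717 and 1674 bp in CC_l, 2333 and 2701 bp in HH, 1986 and 2309 bp in CCC, and 1723, 3025 and 1664 bp in HHC. All 9 libraries of the 25-week cohort were therefore marked, against 6 of 12 in the 12-week cohort.

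Wt1 and Krt8 had a like distribution of H3K4me3 over libraries. Wt1 was covered over 4244, 5508 and 0 bp in C and over 0 bp in the 9 other 12-week libraries. In the 25-week cohort it was covered over 1714 and 4923 bp in CC_l, 4793 and 2125 bp in HH, 2386 and 5445 bp in CCC, and 1649, 7720 and 7086 bp in HHC. Krt8 was covered over 750, 1493 and 684 bp in C, over 642 bp in HC replicate 1 and over 0 bp in the other H, CC_s and HC libraries. Its coverage in the 25-week cohort was 1139 and 1601 bp in CC_l, 1031 and 1205 bp in HH, 776 and 1103 bp in CCC, and 0, 2369 and 2900 bp in HHC. None of the 3 H libraries held an H3K4me3 peak at any of the 9 genes. The same held for CC_s replicates 1 and 2 and HC replicate 2. The non-coding gene Gm36026 overlaps the start of Krt8 and runs the other way, so the H3K4me3 there cannot be given to one of the 2 genes.

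Peaks of H3K4me1 and H3K27ac were rare at these promoters. H3K4me1 was found at Lrrn4 in 9 of 22 libraries, at Wt1 and Krt19 in 4 each and at Krt8 in 2, and at the other 5 genes in 0. All but 1 of these came from the 25-week cohort, the exception being Krt19 in C replicate 1. Of all promoters, a mean of 12.6% carried H3K4me1 in a 12-week library and 37.7% in a 25-week library. For H3K27ac these means were 34.4% and 47.7%. H3K27ac was found at 6 of the 9 genes, in 1 or 2 of 21 libraries each, and at Msln, Upk1b and Krt19 in 0. The 4 libraries with any such peak were HH replicate 1 (Krt8, 1613 bp), CCC replicate 1 (Lrrn4, 2180 bp), HHC replicate 2 (Upk3b 911 bp, Krt18 147 bp and Lrrn4 2388 bp) and HHC replicate 3 (Upk3b 516 bp, Wt1 3308 bp and Krt7 1864 bp). The Upk3b window held no peak of any mark other than these 2. HH replicate 1 and HHC replicate 3 were also the 25-week H3K27ac libraries with the least adipocyte marking. HH replicate 1 had 6 of 10 adipocyte promoters (summed coverage 19428 bp), 5 of 8 macrophage and 6 of 8 endothelial promoters marked. HHC replicate 3 had 7 of 10 adipocyte promoters (18952 bp), 4 of 8 macrophage and 5 of 8 endothelial promoters marked. The other HH and HHC libraries marked 10 of 10 adipocyte promoters (40487 to 47874 bp), among them HHC replicate 2. Of these, HHC replicate 1 marked 8 of 8 macrophage promoters (21766 bp) and HH replicate 2 marked 6 of 8 (13572 bp). Neither held an H3K27ac peak at the 9 marker genes. HH replicate 3 marked 3 of 8 macrophage promoters and HHC replicate 2 marked 2 of 8. The endothelial counts of these libraries were 1 to 3 of 8. The part of these differences in the H3K27ac peaks at the marker genes was not tested.

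Libraries of different marks that share a diet group and replicate number were set side by side. The labels do not say that a number stands for the same animal in each mark. The study's authors describe assaying the marks together in adipocyte nuclei from a single fat depot. In 20 such sets with both marks, H3K4me3 and H3K27me3 were both present at Wt1 in 11 sets, at Lrrn4 in 10 and at Krt8 in 8. Wt1 carried H3K27me3 in every library, so H3K4me3 without it could not occur there (0 of 20 sets). At Lrrn4 and Krt8, H3K4me3 was found without H3K27me3 in 5 and 4 sets. At Msln, Krt7 and Krt19, H3K27me3 alone was the rule, in 16, 17 and 17 of 20 sets. Marks found together in pooled nuclei may lie on the same or on different alleles or cells, and this was not tested. Likewise, a mark in fewer nuclei and less of a mark in each nucleus cannot be told apart in these libraries.

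At Lrrn4 and Krt8 H3K4me3 and H3K27me3 were most frequent at different places. H3K4me3 was most frequent downstream of the start site at Lrrn4, where 15 of 21 libraries held a peak at 1000 to 1500 bp, and at Krt8, where 12 of 21 did at 1200 to 1500 bp. At the start site itself, peaks were present in 4 and 2 libraries. H3K27me3 was most frequent at 100 to 400 bp at Lrrn4 and at -700 to -400 bp at Krt8, in 11 of 20 libraries each. At Wt1, H3K27me3 was found in as many as 19 of 20 libraries at points between -1400 and 6000 bp, with a dip to 7 of 20 at 500 bp, and H3K4me3 was most frequent inside that stretch, at 3800 to 4500 bp, in 11 of 21.

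**Figure D3:**
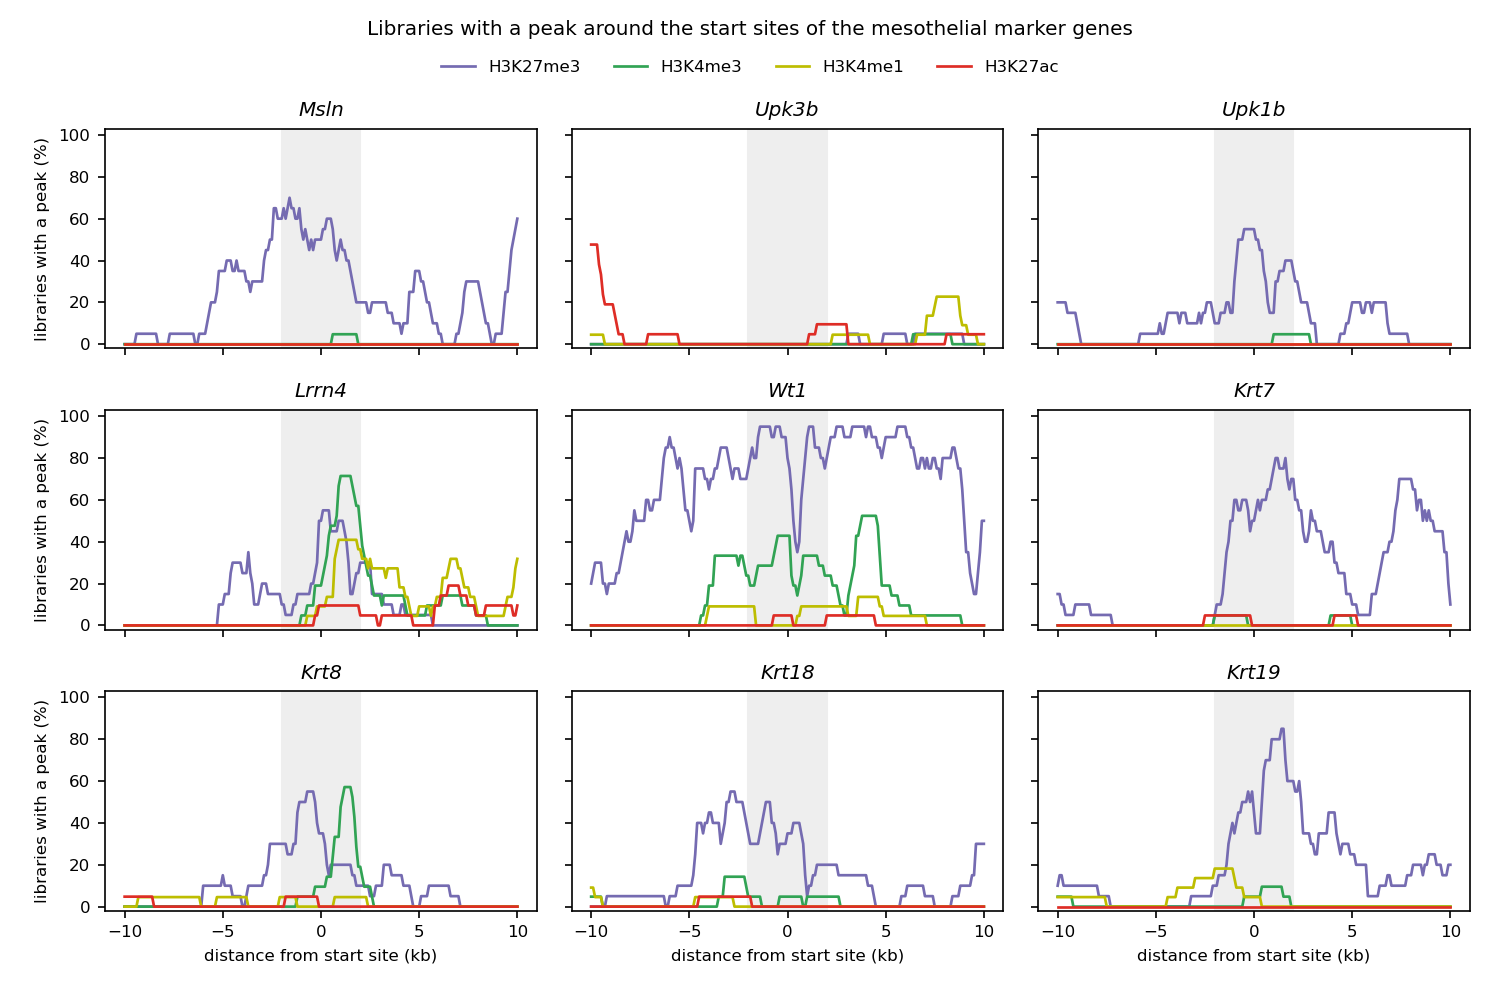
Share of libraries with a peak (vertical axis, %) at each distance from the most upstream protein-coding start site (horizontal axis, kb, positive in the direction of transcription) for the 9 genes, with 1 line per mark and the 2000 bp on either side shaded. Within the shaded windows H3K27me3 (violet) is the most frequent mark at most positions of every gene but Upk3b, and H3K4me3 (green) rises downstream of the start sites of Lrrn4 and Krt8.

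Other marker lists placed these values. A second list of 10 mesothelial genes was marked by H3K27me3 in a median of 87.5% of libraries per gene, against 70.0% for the 9 marker genes, and by H3K4me3 in 23.8% against 9.52%. Its most often H3K4me3-marked members were Cldn15, a claudin of tight junctions (17 of 21), Nkain4 (14), the membrane mucoprotein gene Pdpn (8) and the secreted Wnt co-activator gene Rspo1 (7). Cldn15 also carried H3K27ac in 16 of 21 libraries and H3K27me3 in 0 of 20. Of 11 epithelial genes the median was 90.0% for H3K27me3, and H3K4me3 was most frequent at the splicing regulator genes Esrp2 (20 of 21) and Esrp1 (14), the claudin gene Cldn3 (14) and the cadherin gene Cdh1 (7). Of 8 epididymal epithelium genes, markers of the adjoining organ, 1 was regular: Rnase10, with H3K4me3 in 16 and H3K27ac in 20 of 21 libraries, and the other 7 carried H3K4me3 in 0 or 1. The 8 neuronal genes had medians of 95% for H3K27me3 and 11.9% for H3K4me3. By contrast, the medians for 10 adipocyte genes were 10% and 100%. For progenitor genes, of the precursor cells of fat, they were 40% and 64.3%, for macrophage genes 10% and 42.9%, and for endothelial genes 30% and 47.6%. The adipocyte median hid 1 gene: Adipoq carried H3K27me3 in 19 of 20 libraries and H3K4me3 in 20 of 21. The other adipocyte genes carried H3K27me3 in 0 to 4 of 20.

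**Figure D4:**
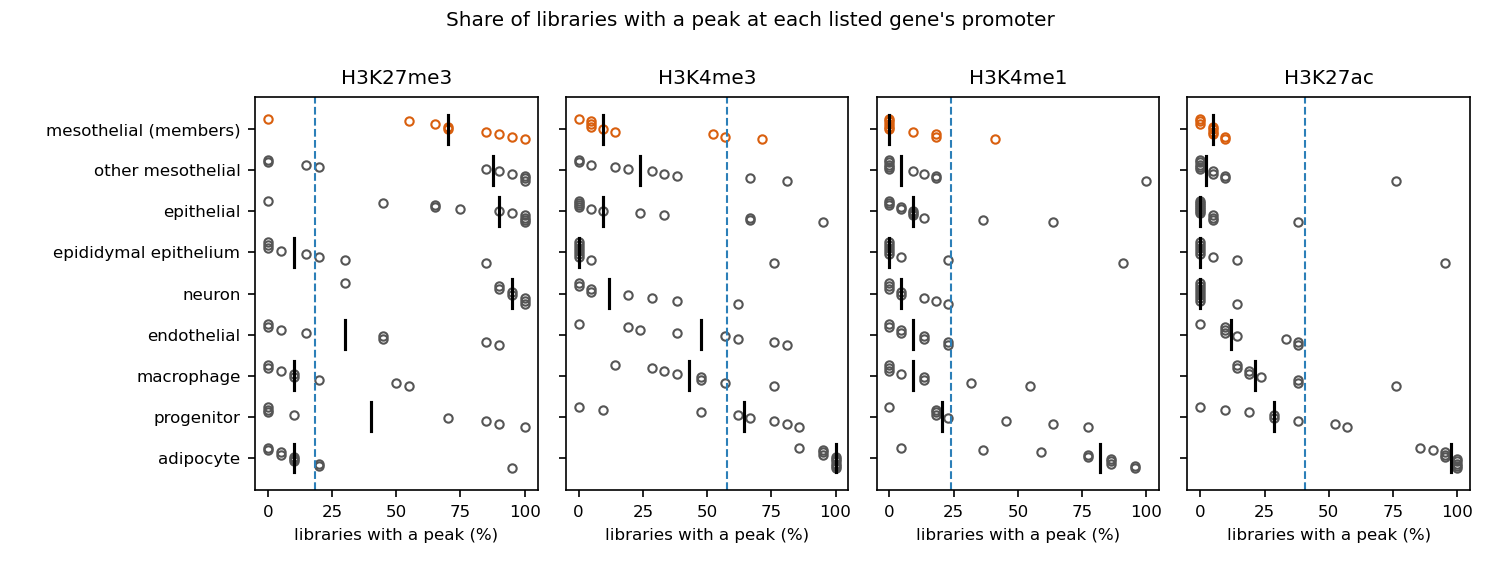
Share of libraries with a peak (horizontal axis, %) at the promoter of each gene of 9 marker lists (rows, 1 circle per gene, the 9 mesothelial marker genes in orange), with the median as a black bar and the mean over all protein-coding genes as a dashed blue line, 1 panel per mark. By their medians the 9 genes lie with the epithelial and neuronal lists, high in H3K27me3 and low in H3K27ac, and opposite to the adipocyte list. In H3K27me3, Upk3b (0 of 20 libraries) and the adipocyte gene Adipoq (19 of 20) lie apart from the medians of their lists.

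The diet comparisons asked whether coverage at these promoters differed in obese mice (H against C, HH against CC_l) or after weight loss (HC against CC_s, HHC against CCC). For every protein-coding gene, the difference in covered base pairs was averaged over the cohorts and tested by an exact two-sided permutation test with labels permuted within cohorts. In none of the 8 combinations of mark and comparison did any of the 21851 genes pass after Benjamini-Hochberg adjustment over all genes. The lowest adjusted exact permutation p was 0.379, in H3K27ac of obese mice. With so few libraries per group, the smallest possible exact permutation p lay between 0.005 and 0.0167. Genes without any peak were also counted in the adjustment. An adjusted p under 0.05 would therefore have needed many genes tied at or near the smallest p. The lack of passing genes does not show that diet left these marks unchanged. The counts below are of unadjusted exact permutation p under 0.05, each set beside the share of all genes marked in at least 1 library compared, and 4 of the 72 tests of marker genes came under it.

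In obese mice, H3K27me3 over Krt7 was lower before adjustment. It covered 3550, 1966 and 2402 bp in C and 0 and 604 bp in H, and 3292 and 3059 bp in CC_l and 1817 and 2250 bp in HH. No H or HH library reached its controls. The mean difference was -1740 bp (12-week cohort 302 ± 427 bp, SD, n = 2, against 2639 ± 818 bp, n = 3, and 25-week cohort 2034 ± 306 bp, n = 2, against 3176 ± 165 bp, n = 2; exact permutation p = 0.0167, the smallest possible here, adjusted p = 1.0). This was 1 of 8 marked members, while 6.01% of 8524 genes passed in the same direction.

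At the other genes the difference in H3K27me3 did not pass. Msln was covered over 0 bp in both H libraries and over 2624 and 575 bp in HH, a mean difference of -1894 bp from controls (exact permutation p = 0.0667). Upk1b was covered over 2841, 3057 and 2019 bp in C, 390 and 0 bp in H, 4001 and 950 bp in CC_l and 1813 and 0 bp in HH, a difference of -2007 bp (exact permutation p = 0.05). For Wt1 the difference was -1077 bp (exact permutation p = 0.05). Within the 12-week cohort, every H library lay below every C library at 5 of 8 marked members (Msln, Upk1b, Wt1, Krt7 and Krt19), and so did 31.4% of 5746 genes.

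The whole H3K27me3 libraries of these groups differed in the same direction. The median coverage of all marked promoters was 822 and 900 bp in H against 2157 to 2263 bp in C, but 1730 and 2701 bp in HH against 2115 and 2888 bp in CC_l. Divided by that median in each library, the Krt7 difference no longer passed (-0.588 library medians, exact permutation p = 0.05). Krt7 was marked in 1 of 2 H libraries and in 3 of 3 C libraries, and presence alone did not pass (exact permutation p = 0.4). Other lists also carried less H3K27me3 in H than in C: the summed coverage of 11 epithelial promoters was 9513 and 10938 bp in H and 18980 to 23546 bp in C, and that of 8 neuronal promoters 8643 and 10962 bp in H and 22673 to 24155 bp in C. The part of these differences in the result at Krt7 was not tested further.

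After weight loss, H3K27me3 over Krt8 and Lrrn4 was higher than in age-matched controls, again before adjustment only. Krt8 was covered over 0 bp in 3 CC_s libraries and over 1010, 0 and 2347 bp in HC, and over 0 and 780 bp in CCC and 3763, 2679 and 3201 bp in HHC. All HHC libraries lay above all CCC libraries, whereas HC and CC_s overlapped at 0. The mean difference was 1972 bp (HC 1119 ± 1177 bp, SD, n = 3, against 0 bp, and HHC 3214 ± 542 bp, n = 3, against 390 ± 552 bp, n = 2; exact permutation p = 0.02, adjusted p = 0.883).

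Lrrn4 was covered over 0, 977 and 0 bp in CC_s and 1914, 286 and 742 bp in HC, and over 0 bp in both CCC libraries and 3618, 1749 and 3566 bp in HHC. Here too HHC lay above CCC and the 12-week groups overlapped. The mean difference was 1816 bp (HC 981 ± 840 bp, SD, n = 3, against 326 ± 564 bp, n = 3, and HHC 2978 ± 1064 bp, n = 3, against 0 bp, n = 2; exact permutation p = 0.03, adjusted p = 0.999). These were 2 of 8 marked members, and 1.44% of 9058 genes passed in this direction. At Krt18, next to Krt8, coverage was 0 and 901 bp in CCC and 2845, 2072 and 2009 bp in HHC, and the mean difference over both cohorts was 996 bp (exact permutation p = 0.05). Other 25-week groups also carried the mark at these genes. Krt18 was covered over 3733 and 2034 bp in CC_l and 4001 and 2064 bp in HH, and Lrrn4 over 1772 and 0 bp in CC_l and 3252 and 1278 bp in HH. Krt8 was covered over 4001 and 0 bp in CC_l and 2287 and 1701 bp in HH. CCC had the lowest mean of the 4 groups at each of the 3 genes.

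Every HHC library lay above every CCC library at these 3 of 8 marked members, as at 10.0% of 8192 genes. Median coverage of all marked promoters was 1720 to 2532 bp in HHC and 1877 and 2041 bp in CCC. Divided by the library median, both differences remained under the threshold, 1.14 library medians for Krt8 (exact permutation p = 0.02) and 1.12 for Lrrn4 (exact permutation p = 0.01). They did not when each list was reduced to equal covered base pairs (exact permutation p = 1.0 and 0.7), nor in 3 of 3 cases without 1 HHC library (exact permutation p = 0.0667 for Krt8 and 0.05 for Lrrn4). Krt8 also missed the threshold without either CCC library (exact permutation p = 0.05 each). Lrrn4 also missed it without HC replicate 1 or CC_s replicates 1 or 3 (exact permutation p = 0.06 each) and without HC replicate 3 (exact permutation p = 0.05), so that its call held in 4 of 11 cases and that of Krt8 in 6 of 11. In the same HHC libraries the macrophage list had 1 to 5 of 8 promoters with H3K27me3 against 1 and 2 in CCC, and the adipocyte list 2 to 5 of 10 against 1 and 2. The epithelial list had 9 to 10 of 11 against 9 (summed coverage 18929 to 30201 bp against 24395 to 27474 bp). The neuronal list had 7 to 8 of 8 against 7 (20747 to 24998 bp against 21774 to 22619 bp). The other mesothelial list had 5 to 7 of 10 against 6 to 7 (9754 to 21276 bp against 15933 to 21052 bp).

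In HC, the members that were regularly marked in controls had the narrower coverage already seen in H. Krt7 was covered over 2071, 3707 and 3058 bp in CC_s and 1389, 0 and 190 bp in HC, and Msln over 479, 0 and 653 bp in HC. Every HC library lay below every CC_s library at 3 of 8 marked members (Msln, Wt1 and Krt7), as at 21.3% of 6502 genes. The median coverage of all marked promoters was 417 to 1196 bp in HC and 1886 to 2050 bp in CC_s. In the 25-week cohort Krt7 was covered over 2202 and 2652 bp in CCC and 2482, 4001 and 3061 bp in HHC, and the groups overlapped.

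**Figure D5:**
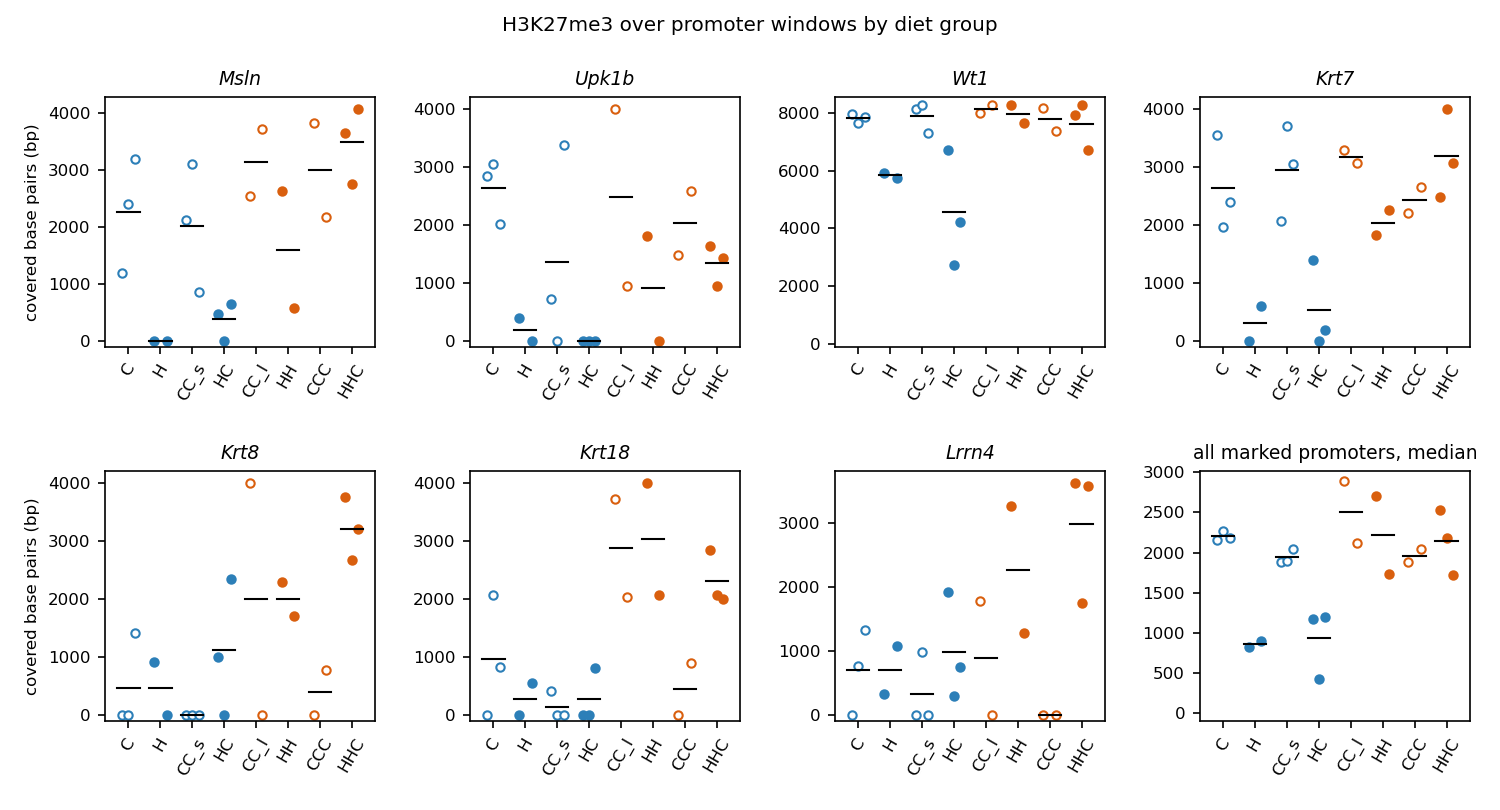
Base pairs of the promoter window covered by H3K27me3 peaks (vertical axis, bp) in each library by diet group for 7 genes, and in the last panel the median over all marked promoters of each library. Open circles are chow controls, filled circles diet groups, blue the 12-week and orange the 25-week cohort, and bars group means. Msln, Krt7 and Wt1 are low in H and HC, as the whole libraries are, while Krt8, Krt18 and Lrrn4 are higher in the 3 HHC libraries than in CCC, and HH is also high at all 3.

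In H3K4me3 of obese mice, Krt8 was lower before adjustment. It was covered in each C library and in none of 3 H libraries, and HH and CC_l overlapped. The mean difference was -614 bp (H 0 bp, n = 3, against C 976 ± 449 bp, SD, n = 3, and HH 1118 ± 123 bp, n = 2, against CC_l 1370 ± 327 bp, n = 2; exact permutation p = 0.0333, adjusted p = 1.0). This was 1 of 6 marked members, and 3.67% of 15167 genes passed in this direction. With groups taken from the treatment field the difference was -398 bp (exact permutation p = 0.117), and without HH replicate 2 or CC_l replicate 2, 2 of the libraries with disagreeing labels, the exact permutation p was 0.05. The H3K4me3 lists of H were narrower as a whole: the median coverage of marked promoters was 1846, 1916 and 1028 bp in H against 2269 to 2469 bp in C, and H replicate 3 was the smallest list, with 11249 peaks. Over all genes 556 passed as lower and 2 as higher. Divided by the library median, the Krt8 difference passed (-0.285 library medians, exact permutation p = 0.0167). The adipocyte list was marked at 9 or 10 of 10 promoters in H and 10 of 10 in C, but its summed coverage was 34133, 30279 and 25033 bp in H against 43790 to 45546 bp in C. The macrophage list was marked at 0 to 7 of 8 promoters in H and at 2 of 8 in every C library. The neuronal list was marked at 0 of 8 in H and 1 to 2 in C. The epithelial list was marked at 0 to 2 of 11 in H and 3 to 4 in C, and the other mesothelial list at 0 to 2 of 10 and 2 to 3.

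Lrrn4 differed between the cohorts in obese mice, with H below C (0 bp in 3 libraries against 1147 to 1845 bp) and HH above CC_l (2333 and 2701 bp against 717 and 1674 bp). Its average over both cohorts was -51.4 bp (exact permutation p = 0.85). After weight loss, 0 of 6 marked members passed in H3K4me3, with 4.45% of 15401 genes passing. The H3K4me3 library with the most of the 9 genes marked was HHC replicate 2, with 6, among them Upk1b (1037 bp) and Krt7 (1672 bp), which no other library marked with H3K4me3. That library also had the most promoters marked of all H3K4me3 libraries, 66.0%.

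No marker gene passed in the other marks. In H3K27ac, 0 of 1 marked member passed in obese mice (15.3% of 13634 genes) and 0 of 5 after weight loss (1.93% of 13758 genes). In H3K4me1, 0 of 4 passed in obese mice (3.68% of 12351 genes) and 0 of 4 after weight loss (1.87% of 13611 genes). None of these members could pass. In each comparison a marked member had peaks in libraries of a single cohort, and the exact permutation p could then not come under 0.05. The counts of 0 therefore do not show that diet left these marks unchanged. For Upk3b in H3K27ac, 0, 911 and 516 bp in HHC stood against 0 bp in both CCC libraries (exact permutation p = 0.4). Some other lists also reached higher H3K27ac counts in HHC than in CCC. Of 8 macrophage promoters, 2 to 8 were marked (summed coverage 3565 to 21766 bp) against 0 to 3 (0 to 1306 bp), so the counts overlap. Of 8 endothelial promoters, 2 to 5 were marked against 0 in both, and of 10 other mesothelial promoters 2 to 4 against 0 and 1. The adipocyte list was marked at 7 to 10 of 10 promoters in HHC (18952 to 46448 bp) and at 10 in both CCC libraries (37392 and 46890 bp). Of the 2 CCC libraries replicate 3 was the one with the fewest promoters marked. The part of these values in the Upk3b peaks was not tested.

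Genes with the most similar pattern over the 84 libraries of all marks were sought for Msln and Wt1 by the Jaccard index, the libraries marked at both genes over those marked at either. For Msln, marked in 18 libraries, the closest was Ccdc60 with an index of 1.0, followed by 1700001C02Rik and Tdrd6, both 0.947. For Wt1, marked in 36 libraries, they were H60b (0.900), Ankrd63 and Dpysl5 (both 0.897). The index over libraries of 4 marks reflects mainly which marks a gene carries. Upk3b was marked in 2 libraries, too few for such a comparison.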

How the data were processed

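The 84 peak lists were deposited by the authors, who trimmed reads with Trim Galore 0.6.6, aligned them with Bowtie2 2.4.4 to mm10 (GRCm38), made coverage tracks with SAMtools and bedtools 2.30, and called peaks per library with SEACR 1.3 (stringent, threshold 0.01). The lists have no header, so units were read from the values: the deposited signal columns are whole-number coverage summed over a peak and its maximum, in 84 of 84 libraries, not scaled between libraries and used here only to rank peaks within a library. No list was identical to another, and peaks lay within the chromosome lengths on 21 of 21 chromosomes.

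Promoters were taken from the GENCODE M21 basic annotation (41438 start sites). Tests were exact permutation tests over libraries (numpy 2.4.6, pandas 2.3.3, Python 3.11.15), checked on simulated data. The smallest possible p was 0.005, 0.01 or 0.0167. Depth is unknown, so precision rests on the number of libraries. All 9 genes are named. From other lists at most 4 were named, those with H3K4me3 in the most libraries, and Adipoq besides for its H3K27me3. The closest genes were the 3 with the highest Jaccard index, given for genes marked in at least 6 libraries. The marker genes, lists and tests were chosen with earlier results of these data known. Alternatives changed the window, the peak selection, the measure, the grouping and the libraries included. Equal covered base pairs, division by library medians, the libraries left out for their labels or narrow peaks, and the settings for differences between cohorts were added after seeing the data.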

Additional observations from a re-analysis of the deposited data

Results flagged for a closer look

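For 2 results the effect of diet differed between the cohorts by an exact permutation test of that difference. H3K4me3 at Lrrn4 in obese mice differed by -2746 bp (12-week minus 25-week, -1424 bp against 1322 bp, exact permutation p = 0.0167, the smallest possible). Of all marked genes, 23.6% passed the same test in this comparison. H3K27me3 at Krt7 after weight loss differed by -3173 bp (-2419 bp against 754 bp, exact permutation p = 0.015), and 2.90% of genes passed. Without CCC replicate 1 the Krt7 difference was -2948 bp (exact permutation p = 0.05), and 2 of 9 other settings kept it under the threshold (values from -4375 bp to 0, with -294 bp and exact permutation p = 0.65 for windows of 500 bp on either side). For Lrrn4, 4 of 10 other settings kept it under the threshold (values from -3552 bp to 0). It was lost with windows of 500 bp, equal numbers of peaks, the stronger 50% of peaks, presence alone, equal covered base pairs and groups from the treatment field (-1707 bp, exact permutation p = 0.15). Groups of 2 or 3 libraries were too small for a test of single outlying libraries.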

How the results depend on the processing

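Of 398 values under alternative settings, 309 kept their direction and side of the threshold and 0 reversed. They include the counts of 0 in H3K27ac and H3K4me1, where no member could pass. The calls held less often. Krt8 in H3K4me3 of obese mice kept its call in 3 of 11 settings, and in 8 of 10 cases without 1 library. In H3K27me3, Krt7 in obese mice kept it in 6 of 10 settings and 6 of 9 such cases. Krt8 and Lrrn4 after weight loss each kept it in 5 of 10 settings. The mean number of marker genes with H3K4me3 per library, 2.19, was 0.476 with equal numbers of peaks, 1.0 with the stronger 50% of peaks and 0 with equal covered base pairs, and that with H3K27me3, 6.30, was 1.45 with equal covered base pairs. Leaving out 1 library gave 2.0 to 2.3 and 6.21 to 6.47. Without libraries whose labels disagree the H3K4me3 mean was 1.94, and without H and HC the H3K27me3 mean was 6.67. For H3K27ac and H3K4me1 these means were 0.25 to 0.4 and 0.714 to 0.905 without 1 library.

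The count of marker genes under the threshold in H3K4me3 of obese mice, 1, was 0 with windows of 500 bp, equal numbers of peaks, the stronger 50% of peaks, presence alone, full peak widths, equal covered base pairs and the treatment field, and 0 to 1 without 1 library. In H3K27me3 of obese mice the count of 1 was 0 with presence alone and with equal covered base pairs, and 0 to 4 without 1 library (0 without any 1 C library, where the smallest possible exact permutation p is 0.0556, 4 without HH replicate 2 and 2 without CC_l replicate 2). In H3K27me3 after weight loss the count of 2 was 1 with at least 500 bp covered, equal numbers of peaks, the stronger 50% of peaks and presence alone, 0 with equal covered base pairs, and 0 to 3 without 1 library (0 without any 1 HHC library). The cause of these changes was not tested. In the 5 other comparisons the count was 0 under every setting. In H3K27ac and H3K4me1 it could not have been above 0 in the full lists, as stated above.

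Replicate numbers did not pair the libraries: deviations from group means correlated over 0.1 in 5 of 36 same-numbered pairs (range -0.478 to 0.225). With the replicate block the counts were 0, 0 and 0 in H3K4me3 of obese mice and in H3K27me3 of obese mice and after weight loss, where the smallest possible exact permutation p was 0.125, 0.25 and 0.0625.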
